A study of Mus musculus with 8 samples.

Results

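ATP-dependent chromatin remodelers are enzyme complexes that use the energy of ATP to slide, evict or exchange nucleosomes. The members described here are 46 genes, read by 123 probe sets, out of 18193 genes and 45037 probe sets on the arrays. They were taken by name: probe sets of a single gene whose symbol starts with Smarc or Ino80, or with Chd or Arid followed by a digit, or is Baz1a, Baz1b, Baz2a, Baz2b, Hells, Ep400, Srcap or Bptf. Each gene is given by its brightest probe set, judged by the mean of the 8 arrays. The name rule also drew in genes that are not remodelers themselves: 6 ARID proteins that bind DNA or sit in other complexes (Arid3a, Arid3b, Arid4a, Arid4b, Arid5a and Arid5b) and Ino80dos, a transcript from the strand opposite Ino80d.

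The arrays hold RNA of round spermatids, the haploid cells that form after meiosis, from 129 Sv/Ev mice aged 2 to 4 months. There were 4 arrays of mutants with the BrdtΔBD1 allele, which lacks the first bromodomain of the testis protein Brdt, and 4 arrays of control mice. Every array pooled the cells of 7 adult animals, purified on a gradient of 2% to 4% bovine serum albumin and checked with propidium iodide. The labels do not give the genotype of the control animals beyond the word control, and both groups share the strain, the age range and the purification.

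Remodelers fall into families by their Snf2-type ATPase. SWI/SNF complexes (BAF and PBAF) carry Smarca2 or Smarca4 and open chromatin at promoters and enhancers. ISWI complexes carry Smarca1 or Smarca5 and space nucleosomes, and most CHD enzymes read histone tails through chromodomains. The INO80 and SWR1-like complexes exchange the histone variant H2A.Z. In the testis these enzymes act while meiotic chromosomes are repaired and later while histones are replaced by transition proteins and protamines.

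The differences at gene level were small for most members. All differences below are mutant minus control on the log2 intensity scale, with the standard error (SE) of the limma fit, and a gene passed when its Benjamini-Hochberg adjusted p over all 18193 genes was under 0.05. In the fit with group as the only term, 0 of 46 members passed in limma, and the lowest adjusted p was 0.0568 for Smarcb1. At an unadjusted p under 0.05, 6 members were higher and 4 lower in the mutant, while over all genes 11.0% were higher and 9.16% lower. In that fit 1.86% of all genes rose and 1.85% fell. Arrays with the same replicate number deviated together, so the fit was repeated with the number as a block. With the block 5 members rose (Smarcc1, Baz1a, Hells, Smarcad1 and Arid4b) and 2 fell (Smarcb1 and Baz2b). Leaving pair 3 out of the blocked fit ended all 7 calls. Over all genes 79 then rose and 115 fell, against 1201 and 899 with all pairs. Leaving out pair 1 left 2 risen (Baz1a and Hells) and 0 fallen, beside 627 and 521 of all genes. Without pair 4 there were 1 risen (Smarcc1) and 2 fallen (Baz2b and Chd5), beside 358 and 308. Of the 46 members, 5 rose and 2 fell with all pairs, beside 6.6% of all genes risen and 4.94% fallen in the same blocked fit. The 7 that passed are 15.2% of the members with both directions together, to be set against the 2 shares of all genes together. The members were brighter than genes at large: 35 of 46 had a mean of at least 4, against 8998 of 18193 genes. Among such brighter genes, without the block, 1 of 35 members rose and 1 fell, beside 416 and 364 of 8998 genes. No blocked fit was limited to them. The median difference of the members was 0.04, against -0.02 over all genes, and the median absolute difference was 0.18 in both. In 28 of the 46 members the difference was within 0.25 of 0. Some of these, such as Chd6 and Arid5a, had group means below 4, where GCRMA compresses differences. In pooled RNA, fewer cells of a type and less RNA per cell cannot be told apart.

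**Figure D1:**
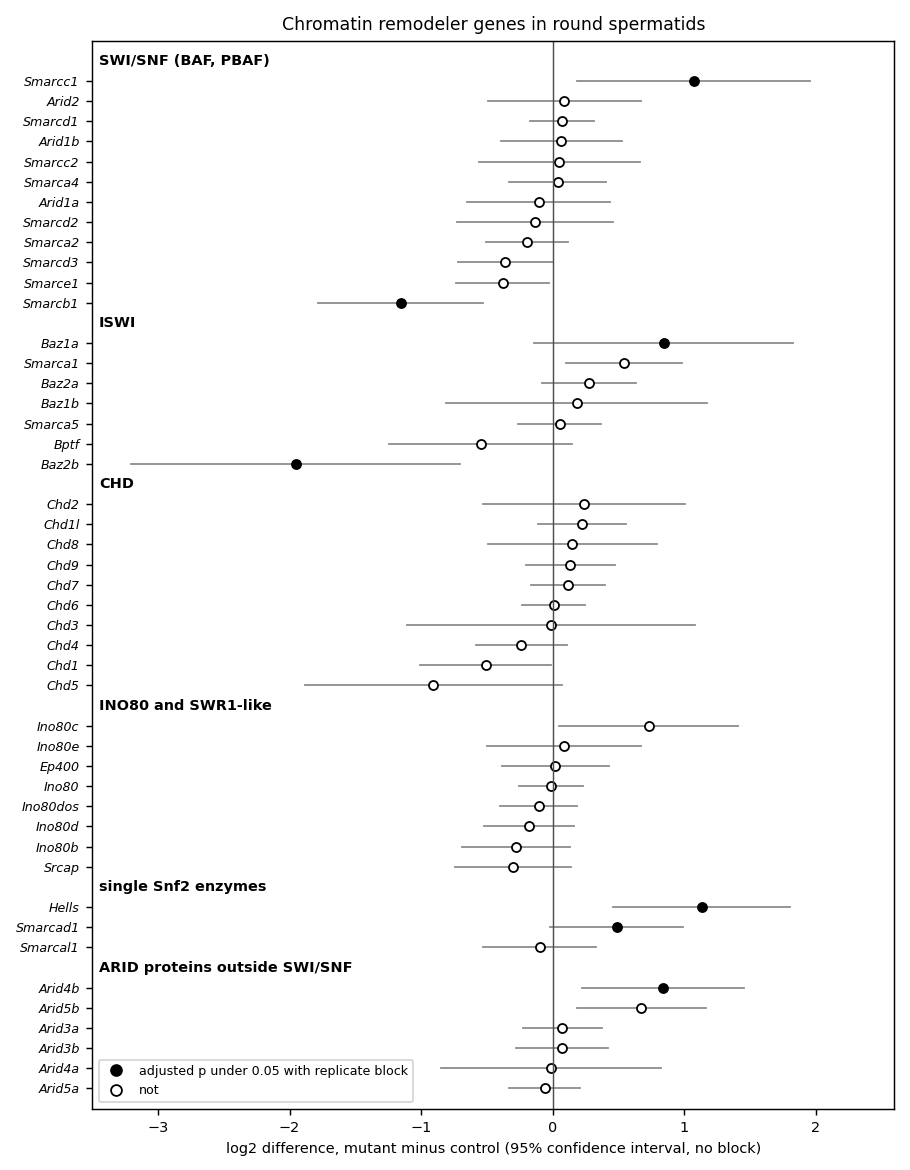
Differences between mutant and control for the 46 members, by family. The horizontal axis is the log2 difference (mutant minus control), bars are 95% confidence intervals of the limma fit without the block, and filled points mark the 7 members that passed with the replicate block. Most points lie close to 0, with Smarcc1, Hells, Baz1a and Arid4b furthest to the right and Smarcb1 and Baz2b furthest to the left.

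The mutant and control arrays did not overlap in 5 of the 46 members (10.9%), against 12.6% of all genes. Hells and Ino80c were higher in every mutant array than in any control array, and Smarcb1, Smarce1 and Baz2b were lower. The mutant array lay above the control array of the same number in all 4 pairs for 8 members and below it for 6, beside 17.7% of all genes higher in all pairs and 18.9% lower. Differences of at least 2-fold were found for 4 members, Smarcb1, Baz2b, Hells and Smarcc1, and for 5.88% of all genes. Of the members, 35 had a mean over all arrays of at least 4 and 11 were below it, where GCRMA compresses values and folds are understated.

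The promoters of the 4 members that differed by at least 2-fold are shown because these genes have the largest differences at gene level. They come from RefSeq on GRCm38.p6 and run from 250 bases before to 50 bases after the transcription start, 5′ to 3′ on the strand of the gene. Capitals mark letters of 7 motifs searched on both strands: the GC box (GGGCGG), the CCAAT box (CCAAT), the TATA box (TATAAA), the core of the nuclear respiratory factor 1 site (GCATGCGC), the cAMP response element (TGACGTCA), the YY1 motif (AAGATGGC) and the element TCTCGCGA. Smarcb1 lies at chr10:75921565-75921864 on the minus strand, Smarcc1 at chr9:110131774-110132073 on the plus strand, Hells at chr19:38930740-38931039 on the plus strand and Baz2b at chr2:60125691-60125990 on the minus strand.
Smarcb1: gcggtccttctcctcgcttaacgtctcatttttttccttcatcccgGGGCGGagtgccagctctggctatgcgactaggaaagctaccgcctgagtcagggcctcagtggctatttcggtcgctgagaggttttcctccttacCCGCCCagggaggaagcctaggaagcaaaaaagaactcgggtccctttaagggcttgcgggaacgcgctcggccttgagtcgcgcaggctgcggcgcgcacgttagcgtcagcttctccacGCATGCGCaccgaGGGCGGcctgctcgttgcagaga
Smarcc1: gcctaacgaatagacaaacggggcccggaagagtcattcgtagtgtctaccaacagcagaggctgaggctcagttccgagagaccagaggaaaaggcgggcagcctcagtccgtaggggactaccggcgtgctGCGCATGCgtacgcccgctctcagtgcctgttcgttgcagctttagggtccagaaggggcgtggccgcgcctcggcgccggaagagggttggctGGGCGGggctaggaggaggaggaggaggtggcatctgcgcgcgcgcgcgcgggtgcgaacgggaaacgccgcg
Hells: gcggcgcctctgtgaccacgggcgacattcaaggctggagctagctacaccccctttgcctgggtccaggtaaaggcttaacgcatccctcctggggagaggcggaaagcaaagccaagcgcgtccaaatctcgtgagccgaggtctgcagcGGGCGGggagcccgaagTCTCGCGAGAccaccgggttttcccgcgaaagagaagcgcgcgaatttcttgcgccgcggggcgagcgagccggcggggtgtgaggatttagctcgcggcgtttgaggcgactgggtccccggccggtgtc
Baz2b: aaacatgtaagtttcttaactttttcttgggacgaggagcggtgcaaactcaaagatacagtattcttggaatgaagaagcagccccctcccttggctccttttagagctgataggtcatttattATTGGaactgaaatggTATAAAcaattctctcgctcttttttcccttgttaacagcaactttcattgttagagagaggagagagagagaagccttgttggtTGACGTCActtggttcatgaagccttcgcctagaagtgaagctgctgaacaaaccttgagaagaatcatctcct

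Smarcb1 and Smarcc1, subunits of the same complex with opposite differences, share the GCATGCGC letters, which are found in 4 of the 43 member promoters and in 2.71% of 32851 mouse promoters. The other promoters with these letters are those of the ATPases Smarca4 and Smarca5. Hells carries a pair of overlapping TCTCGCGA matches, 1 on each strand, and that element is found in 4 member promoters (Hells, Smarca1, Smarca5 and Srcap) and in 0.995% of all. Baz2b differs from the other 3 sequences: it has no GC box, its GC content is 41.7% against 60.7% for Smarcb1, and it holds a CCAAT box, a TATA box and the cAMP response element. Over the members, GC boxes are present in 33 of 43 promoters (35.7% of all promoters), the CCAAT box in 14 (37.4%), the TATA box in 3 (13.6%), the YY1 motif in 3 (2.75%) and the cAMP response element in 1 (1.79%). The median GC content is 65.3% in the member promoters and 52.7% in all. Promoters were found for 35 of the 46 members. A match describes the letters of these windows and shows no binding.

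SWI/SNF was covered by 12 members, of which 1 rose and 1 fell with the block. Smarcb1, the core subunit also known as SNF5 that both BAF and PBAF contain, read 7.78, 9.14, 8.45 and 7.95 on the mutant arrays, in the order of their replicate numbers, and 9.36, 9.72, 9.36 and 9.51 on the control arrays, an order kept below. Every mutant array lay below every control array, with mutant array 2 the closest. Its mean was 8.33 ± 0.61 in the mutant and 9.49 ± 0.17 in the control (SD, n = 4 each), a difference of -1.16 (SE 0.28). Its adjusted p was 0.0568 in limma without the block and 0.0195 with it.

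Smarcc1, the scaffold subunit BAF155, moved the other way. It read 7.42, 6.95, 6.79 and 5.64 on mutant arrays and 6.37, 5.19, 5.63 and 5.32 on control arrays. The mutant array was higher in every pair, although mutant array 4 stood within the control range and was only 0.32 above its partner. The difference was 1.07 (SE 0.39), with a limma adjusted p of 0.168 without and 0.0329 with the block. Smarcc2, the paralogous scaffold BAF170, differed by 0.05 (SE 0.27).

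On their brightest probe sets the ATPases of the complex differed little from control. Smarca2 (BRM) read 10.72, 10.64, 10.62 and 10.75 on mutant arrays and 10.61, 11.12, 10.73 and 11.04 on control arrays. The groups overlapped, and the 95% confidence interval of its difference was -0.51 to 0.11. Smarca4 (BRG1) differed by 0.04, with an interval of -0.33 to 0.40. Second, dimmer probe sets of both were lower and did not pass. That of Smarca2, 1452333_at, was lower in all 4 pairs, with a difference of -1.20 (adjusted p = 0.342, and 0.058 with the block, limma), and that of Smarca4, 1426805_at, differed by -0.72 (adjusted p = 0.524, and 0.168 with the block, limma). The ARID subunits that direct BAF or PBAF to DNA differed by -0.10 (Arid1a), 0.07 (Arid1b) and 0.09 (Arid2), each with overlapping groups. Arid1b was dim, with group means below 4. The accessory subunits Smarcd1 and Smarcd2 differed by 0.07 and -0.13. Smarcd3, a muscle and heart subunit, averaged 3.08 in the mutant and 3.44 in the control (adjusted p = 0.253, limma). Smarce1, the HMG-box subunit BAF57, was lower in every mutant array on its brightest probe set at 9.17 ± 0.17, against 9.55 ± 0.26 (SD, n = 4 each). That difference of -0.38 did not pass in limma (adjusted p = 0.216, and 0.111 with the block).

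ISWI was covered by 7 members, 1 of which rose and 1 fell with the block. Baz1a (ACF1), the partner of Smarca5 in the ACF and CHRAC complexes and a gene needed for normal sperm formation in mice, read 10.97, 9.75, 9.63 and 9.69 on mutant arrays. On control arrays it read 10.36, 8.76, 8.57 and 8.98. Array 1 was high in both groups, so the ranges overlapped, but the 4 paired differences were all positive, from 0.61 to 1.06. The difference was 0.84 with an SE of 0.44 without the block and 0.12 with it. The limma adjusted p was 0.323 without the block and 0.0129 with it, the lowest blocked value of the members.

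Baz2b, a bromodomain protein that pairs with ISWI ATPases, had the largest difference of any member. It read 6.62, 5.47, 5.29 and 6.46 on mutant arrays and 9.44, 6.76, 7.99 and 7.45 on control arrays. No mutant array reached the lowest control array, and control array 1 stood well above the others. The difference was -1.95 (SE 0.55), a 3.87-fold lower level, with a limma adjusted p of 0.0892 without and 0.0208 with the block. Without control arrays 1 and 3 it was -1.15 (adjusted p = 0.32, limma).

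Smarca5 (SNF2H), the broadly expressed ISWI ATPase, read 11.24, 11.26, 11.04 and 11.10 on mutant arrays and 11.42, 10.91, 11.15 and 10.93 on control arrays. The groups overlapped, and the interval of its difference was -0.26 to 0.37. The related ATPase Smarca1 (SNF2L) was dim, at 3.18 ± 0.42 in the mutant and 2.64 ± 0.07 in the control (SD, n = 4 each; limma adjusted p = 0.164). Bptf, the large subunit of the NURF complex that reads methylated histone H3, was lower in all 4 pairs. Its difference was -0.55 (SE 0.31), and it missed the threshold with the block at an adjusted p of 0.0576 in limma. Baz1b and Baz2a differed by 0.19 and 0.28, and their groups overlapped.

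**Figure D2:**
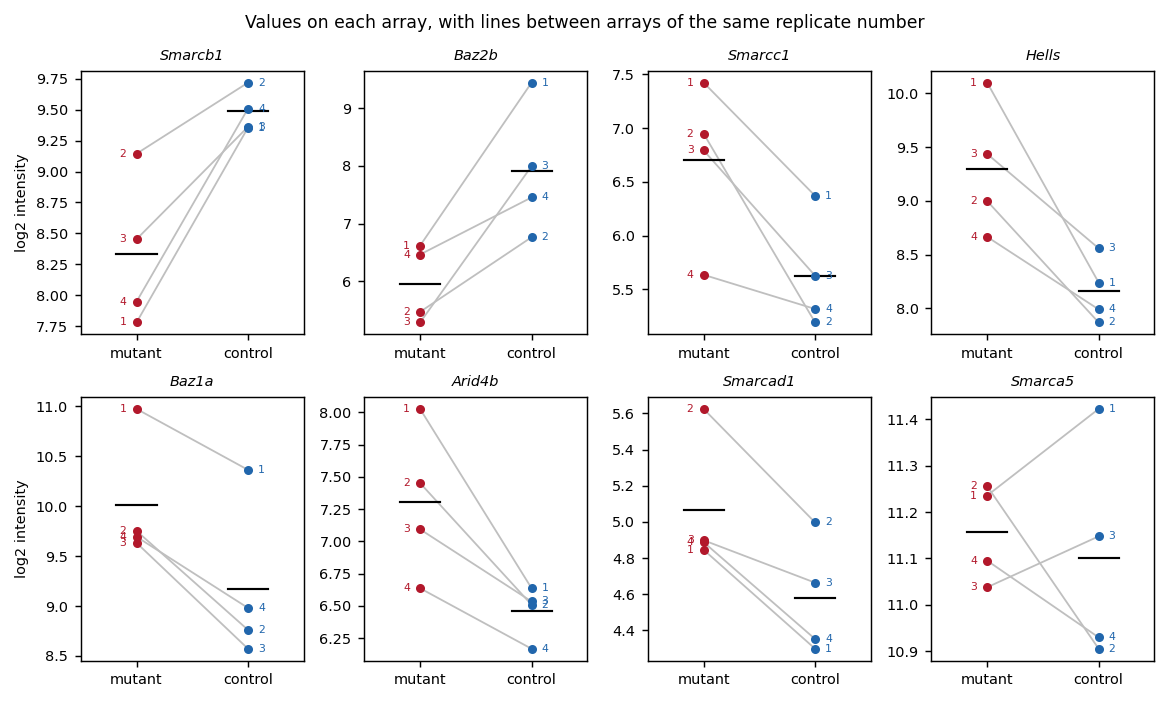
Log2 intensity on every array for the 7 members that passed with the replicate block and for Smarca5. Red points are mutant and blue points control arrays, labelled with the replicate number, grey lines join arrays of the same number and black bars are group means. The lines of the first 7 genes all slope one way, with array 1 high in both groups for Baz1a, whereas those of Smarca5 cross.

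CHD enzymes were covered by 10 members, and 0 of them passed with or without the block. Chd1l (ALC1), a remodeler recruited by poly(ADP-ribose) at DNA breaks, read 11.12, 11.40, 10.99 and 10.93 on mutant arrays and 11.10, 11.00, 10.65 and 10.79 on control arrays. It was higher in every pair by 0.02 to 0.40, and the groups overlapped. The interval of its difference was -0.11 to 0.56.

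Chd5, which in mice is needed for the exchange of histones for protamines, read 5.18, 4.19, 5.45 and 6.04 on mutant arrays and 6.01, 5.42, 7.05 and 5.996 on control arrays. It was lower in 3 of 4 pairs, and pair 4 did not differ by more than 0.04. The difference was -0.91 (SE 0.43), with a limma adjusted p of 0.285 without and 0.0772 with the block. Chd1, an elongation-linked remodeler, differed by -0.51 and passed only the unadjusted test (adjusted p = 0.241, limma). Chd4 and Chd3, the ATPases of the NuRD deacetylase complex, differed by -0.24 and -0.01. The interval of Chd3 was wide, from -1.11 to 1.09, while that of Chd4 was -0.58 to 0.11. The other 5 enzymes of the family, Chd2, Chd6, Chd7, Chd8 and Chd9, differed by 0.01 to 0.24. Chd6, Chd7 and Chd9 were dim, with group means below 4.

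The INO80 and SWR1-like group had 8 members, and 0 passed with or without the block. Ep400, the ATPase of the TIP60 acetyltransferase complex, read 11.55, 11.92, 11.47 and 11.64 on mutant arrays and 11.86, 11.81, 11.16 and 11.66 on control arrays. The groups overlapped, with a difference of 0.02 (SE 0.18). Ino80c, a small subunit of INO80, was higher in every mutant array at 9.70 ± 0.41, against 8.96 ± 0.57 (SD, n = 4 each). Control array 3 was the lowest at 8.12, and the difference of 0.73 (SE 0.30) missed the threshold with the block at an adjusted p of 0.0534 in limma. The subunits Ino80b, Ino80d and Ino80e differed by -0.28, -0.18 and 0.09, and the transcript Ino80dos by -0.10. The ATPases Ino80 and Srcap, whose group means were below 4, differed by -0.01 and -0.30.

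Among 3 enzymes that act without a large complex, 2 rose with the block. Hells (LSH), a Snf2 enzyme required for DNA methylation of repeats and for meiosis in mice, read 10.10, 8.999, 9.44 and 8.67 on mutant arrays and 8.24, 7.87, 8.56 and 7.99 on control arrays. All mutant arrays were above all control arrays, with mutant array 4 only just above control array 3. The difference was 1.13 (SE 0.30), a 2.20-fold higher level, with a limma adjusted p of 0.0734 without and 0.0218 with the block.

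Smarcad1, which helps to keep heterochromatin silent and to resect DNA ends, read 4.85, 5.63, 4.90 and 4.89 on mutant arrays and 4.30, 4.997, 4.66 and 4.35 on control arrays. Array 2 was the highest of its group in both genotypes, and every pair was higher in the mutant. Its difference of 0.49 (SE 0.22) had a limma adjusted p of 0.265 without and 0.0425 with the block. Smarcal1, which remodels stalled replication forks, differed by -0.10.

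Of the 6 ARID proteins outside SWI/SNF, 1 rose with the block. Arid4b, a subunit of the SIN3 deacetylase complex, read 8.03, 7.45, 7.09 and 6.64 on mutant arrays and 6.64, 6.51, 6.53 and 6.17 on control arrays. Mutant array 4 met control array 1, and the other 3 mutant arrays were above all controls. The difference was 0.84 (SE 0.27), with a limma adjusted p of 0.127 without and 0.0312 with the block. Its paralog Arid4a differed by -0.01, and the DNA-binding proteins Arid3a, Arid3b and Arid5a by 0.08, 0.07 and -0.06. Arid5a was dim, with group means below 4. Arid5b, a DNA-binding cofactor of the demethylase Phf2, differed by 0.68 and did not pass (adjusted p = 0.127, and 0.0848 with the block, limma).

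Other probe sets of the same genes did not always move together. Over the 123 member probe sets, 1 rose and 1 fell without the block, beside 0.717% and 0.702% of all probe sets. With the block 10 rose and 5 fell, beside 3.92% and 2.5% of all. Of 18 members with at least 2 probe sets averaging 4 or more, 1 (Smarce1) differed between its probe sets in the diffSplice F test of limma, beside 0.906% of 2870 genes. With the block 2 did (Smarce1 and Smarcb1), beside 5.89%. Where each probe set lies in its transcript is not known here.

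For Smarce1 the brightest probe set was lower in the mutant, as given above, while probe set 1422676_at was higher. It read 5.32, 4.84, 4.70 and 4.46 on mutant arrays and 3.87, 3.84, 4.10 and 3.57 on control arrays. The groups did not overlap, and the difference was 0.99 (SE 0.19) with an adjusted p of 0.047 over all probe sets (0.0179 with the block, limma). The F test between the probe sets of Smarce1 gave an adjusted p of 0.0393. When 1 array was left out in turn, the call of 1422676_at was kept in 1 of 8 fits at adjusted p of 0.0393 to 0.131.

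Ep400 was read by 7 probe sets, and its brightest, 1453130_at, did not pass. Probe set 1426860_at read 8.74, 9.31, 8.93 and 9.09 on mutant arrays and 9.83, 9.60, 9.67 and 9.86 on control arrays. All mutant arrays were below all control arrays, with a difference of -0.72 (SE 0.14; adjusted p = 0.0449, limma), and the call was kept in 1 of 8 fits with an array left out. Probe set 1447349_s_at was also lower in every mutant array, by 0.56 on average, and passed with the block (adjusted p = 0.0221, limma). Probe set 1437020_at was lower in all 4 pairs, with a difference of -1.22, and did not pass (adjusted p = 0.247, and 0.092 with the block, limma). The dim probe sets 1447712_x_at, 1440751_at and 1449610_at differed by -0.14 to -0.01 and did not pass. The F test over 4 probe sets of Ep400 did not pass (adjusted p = 0.517, and 0.157 with the block).

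Smarca5 was read by 4 probe sets. Its bright probe set 1424206_at did not pass, while the dim 1424205_at read 5.08, 4.22, 4.09 and 3.52 on mutant arrays and 2.98, 2.95, 3.15 and 2.91 on control arrays. Every mutant array of that probe set was higher, and its difference of 1.23 (SE 0.28) passed with the block only (adjusted p = 0.0767 without and 0.0332 with it, limma). The F test between probe sets of Smarca5 did not pass without the block (adjusted p = 0.9999), with it (0.717) or with no minimum mean, the fit that includes 1424205_at (0.334). For Smarcb1 a second probe set, 1435856_x_at, differed by -0.41 and the dimmest, 1456938_at, by 0.05, and neither passed. For Smarcc1 a second probe set, 1455246_at, was higher by 1.23 and passed with the block (adjusted p = 0.0171, limma), while the other 2 differed by 0.28 and 0.02 and did not pass. The other 5 probe sets of Arid4b, which differed by 0.03 to 0.34, and the second of Smarcad1, at 0.71, did not pass with or without the block. Both probe sets of Baz1a passed with the block, at 0.84 and 0.77. For Baz2b the dimmer probe set 1435240_at was higher by 0.56 and passed with the block (adjusted p = 0.0391, limma), opposite to the brightest. For Hells the other 2 probe sets read near 3 in both groups and differed by -0.01 and -0.27. A second probe set of Bptf, 1456615_a_at, was lower in every mutant array by 0.83 and passed with the block (adjusted p = 0.0311, limma).

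**Figure D3:**
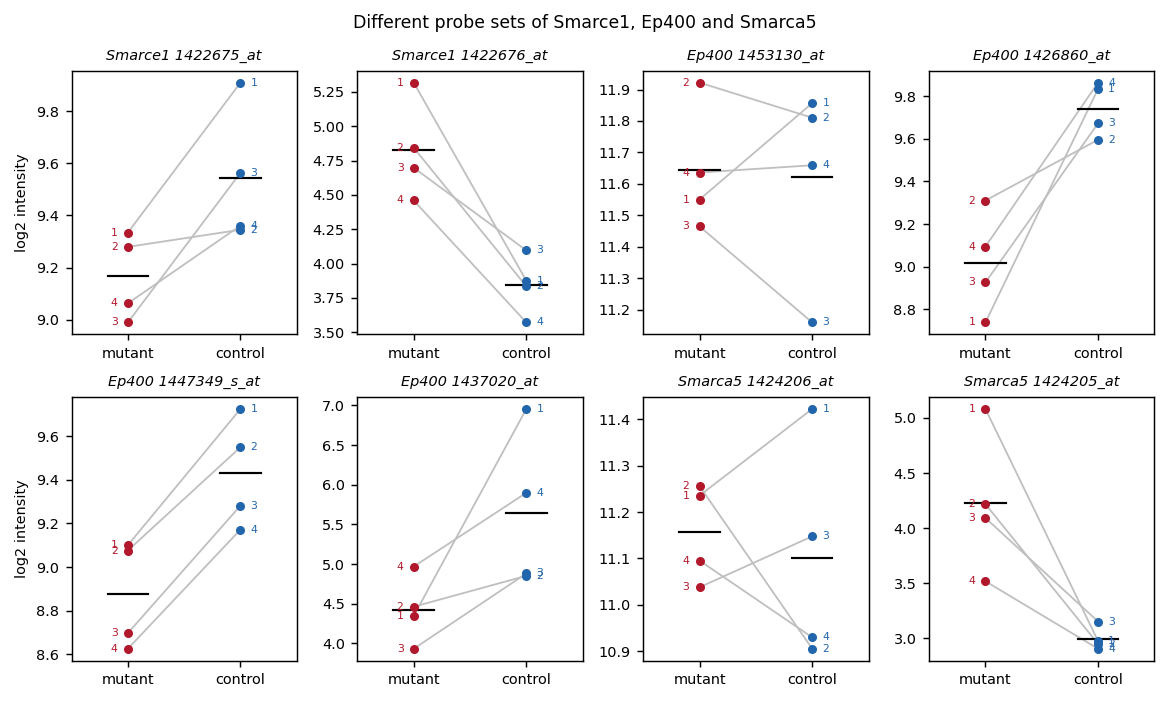
Log2 intensity on every array for different probe sets of Smarce1, Ep400 and Smarca5. Red points are mutant and blue points control arrays with their replicate numbers, grey lines join the pairs and black bars are group means. Probe set 1422676_at of Smarce1 is higher in the mutant while 1422675_at is lower, and the mutant arrays of 1426860_at and 1447349_s_at of Ep400 lie below all control arrays while those of the brightest overlap.

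The labelled cell type was checked with marker lists. The 21 round spermatid markers measured averaged 12.85 to 13.12 per mutant array and 12.77 to 13.04 per control array, and 0 of them passed without the block and 1 rose with it. The mean of 28 Sertoli cell markers (the supporting cells of the tubule), called the Sertoli score here, was 5.52 to 7.06 on mutant arrays and 4.68 to 5.50 on control arrays. Of these markers 6 rose and 0 fell without the block, and 16 rose with it. Among its well-known genes, Clu averaged 12.16 in the mutant and 10.49 in the control with no overlap (adjusted p = 0.0524, limma), and Gata4 was higher in all 4 pairs (3.96 in the mutant and 3.56 in the control). Sox9 (3.80 in both groups) and Amh (1.95 in the mutant and 1.97 in the control), a marker of immature Sertoli cells, were dim. None of these 4 passed without the block. The 18 spermatogonia markers averaged 4.52 to 5.24 on mutant arrays and 3.87 to 4.30 on control arrays, with 1 risen, and 4 with the block. The 35 spermatocyte markers averaged 9.34 to 9.90 on mutant and 9.33 to 9.62 on control arrays, with 0 passing without the block and 3 risen and 2 fallen with it. At an unadjusted p under 0.05 in limma, 7 of them were higher and 3 lower in the mutant. Sycp3 (12.04 in the mutant and 11.05 in the control) and Sycp1 (11.12 and 10.68) were higher in all 4 pairs, and Dmc1 in 3 of 4. The median difference of the 35 spermatocyte markers was 0.075, and those that were lower are not named here. The 8 Leydig cell markers averaged 4.64 to 5.005 on mutant and 4.59 to 4.78 on control arrays with 0 passing, and the 22 markers of peritubular, vascular and blood cells 3.30 to 3.91 on mutant and 3.15 to 3.32 on control arrays with 1 risen. The Gapdh 3′ minus 5′ difference was 0.33 to 0.94 on mutant arrays and 0.46 to 2.05 on control arrays, where arrays 1 and 3 had the highest values.

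The differences of the members were computed again at an equal Sertoli score and without control arrays 1 and 3. With the score as a covariate 0 of 46 members passed in limma, with or without the block. Few genes of any kind passed there: of 18193, 12 rose and 20 fell with the score, and 0 and 0 with the block as well. In the fit with the score and no block, the difference of Hells was 0.60 and that of Smarcb1 -0.40. There Smarcc1 was 1.36, Baz1a 1.14, Arid4b 1.03, Smarcad1 1.05 and Baz2b -1.90. Adjusted p lay between 0.202 for Smarcad1 and 0.797 for Smarcb1. With both the block and the score, Baz2b was -0.20 (adjusted p = 0.947, limma), Smarcb1 -0.33, Arid4b 0.42, Hells 0.43, Smarcad1 0.62, Baz1a 1.14 and Smarcc1 1.60. The scores of the groups did not overlap, so these values are extrapolated. Without control arrays 1 and 3 the 7 members differed by -1.28 (Smarcb1), -1.15 (Baz2b), 0.39 (Smarcad1), 0.96 (Arid4b), 1.14 (Baz1a), 1.37 (Hells) and 1.45 (Smarcc1). In that fit 0 of 46 members passed, and over all genes 18 rose and 50 fell. With the mean of all probe sets of a gene, the difference of Baz2b was -0.29, of Hells 0.29, of Arid4b 0.30, of Smarcb1 -0.51 and of Smarcc1 0.65. The part of other cells or of RNA quality in these differences was not tested.

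**Figure D4:**
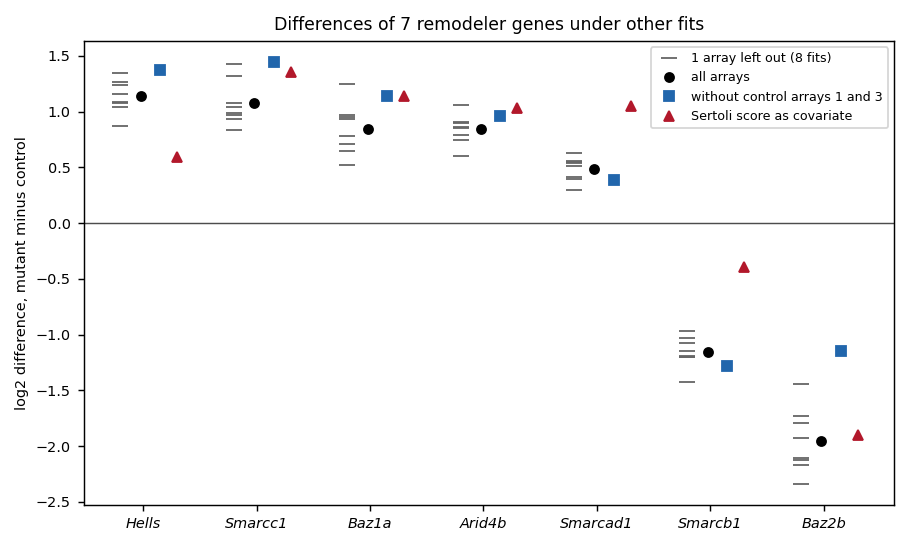
Log2 differences (mutant minus control) of the 7 members that passed with the replicate block, under other fits. All fits are without the block. Black points use all 8 arrays, grey dashes leave out 1 array each, blue squares leave out control arrays 1 and 3, and red triangles have the Sertoli score as a covariate. All signs are kept, and at an equal score Hells is at 0.60 and Smarcb1 at -0.40.

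The other subunits of these complexes were listed as partners, and 59 of 60 were measured. Without the block 1 rose and 1 fell, beside 1.86% and 1.85% of all genes, and with it 7 rose and 7 fell, beside 6.6% and 4.94%. Their median difference was -0.03, against -0.02 over all genes. Yy1, a zinc finger factor that is also a subunit of INO80, read 9.19, 9.53, 8.80 and 8.58 on mutant arrays and 6.67, 7.48, 6.74 and 7.33 on control arrays. The groups were far apart, with a difference of 1.97 (SE 0.26), or 3.92-fold higher, and a limma adjusted p of 0.00653. It passed in 22 of 27 alternatives, and those it did not pass include the fits without control arrays 1 and 3 (1.62, adjusted p = 0.084) and with the Sertoli score as covariate (2.45, adjusted p = 0.058).

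Bicral, a subunit of the non-canonical BAF complex, fell by 1.07 (SE 0.17), to 6.46 ± 0.34 in the mutant against 7.53 ± 0.13 in the control (SD, n = 4 each; limma adjusted p = 0.0167). No mutant array reached the control range. It passed in 17 of 27 alternatives. Those it did not pass include the fits without control array 1, 3 or 4 and without both control arrays 1 and 3. They also include the fit with the Sertoli score as covariate (adjusted p = 0.0506, limma). The next 3 by p were the histone-binding proteins Rbbp4 (0.60) and Rbbp7 (1.84) and the actin-like subunit Actl6a (-0.50), which passed with the block only. Those of Rbbp4 and Rbbp7, and that of Cdk2ap1 named below, are x_at probe sets, in which some probes match related sequences. Also past the threshold with the block were Pbrm1 (0.73), the polybromo subunit of PBAF, Trrap (1.25) and Mrgbp (1.003) of the TIP60 complex, and Actr6 (0.58), an actin-related subunit of the SRCAP complex. Ruvbl1 (-0.66), a helicase-like subunit of INO80, Vps72 (-0.52), which binds H2A.Z, Mta1 (-0.57) and Cdk2ap1 (-0.85) of NuRD, and Bcl11a (-0.67) of BAF fell with it.

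Among 12 other Snf2 family genes 0 passed without the block, and their median difference was 0.13. Zranb3, an annealing helicase of stalled replication forks, was lower in every mutant array at 7.25 ± 0.16, against 7.86 ± 0.26 (SD, n = 4 each). It passed with the block only (adjusted p = 0.0621 without and 0.0261 with it, limma). Btaf1 and Ttf2, which act on transcription complexes, differed by 0.37 and 0.41 and did not pass.

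**Figure D5:**
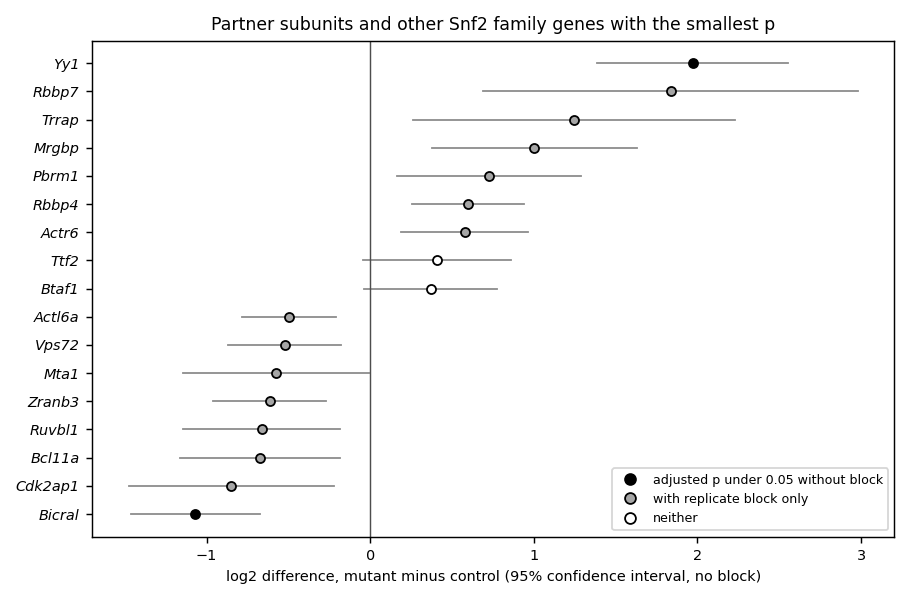
Log2 differences (mutant minus control) of partner subunits and other Snf2 family genes with the smallest p, with 95% confidence intervals of the limma fit without the block. Black points passed without the block, grey points with it only and open points in neither fit. Yy1 lies furthest to the right at 1.97 and Bicral furthest to the left at -1.07.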

How the data were processed

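Round spermatid RNA of 4 mutant and 4 control pools was measured on Affymetrix arrays. The authors deposited normalized values on the log2 scale, 1 intensity for each probe set. GCRMA and limma are named, per the submitters' processing notes, and which version each had and what it did were not given in the sources used here. GCRMA corrects background from probe sequence and compresses dim values. Array medians were 3.10 to 3.14. Scanner files were not used here. Of 45101 probe sets, 64 Affymetrix controls were left out. The platform annotation gave 34945 a single gene, 932 several and 9160 none. Symbols were updated by Entrez identifier for 34741. Groups and replicate numbers came from the sample titles.

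The mutant and control groups were tested in limma 3.58.1 (R 4.3.3, lmFit and eBayes, two-sided) over all genes or probe sets, with Benjamini-Hochberg adjustment at 0.05. Without the block, p-values measure the spread between pools of 7 animals, including whatever arrays of the same number share. With the block they measure the spread of the differences between mutant and control arrays of the same number. The number of arrays limits precision. The code was tested on simulated data. Deviations from the group means correlated at 0.36 to 0.50 between mutant and control arrays of the same number, and at -0.26 to -0.02 between the other pairs. Deviations from a group mean sum to 0, so positive values for the same numbers push the other pairs below 0. The negative range is therefore no separate evidence of pairing. The correlation check comes from the data, and the labels give only the numbers. Members, marker and partner lists were chosen with earlier results of these data known, so their counts are descriptions. Named with all values were members past the threshold with or without the block, those differing by at least 1 on the log2 scale and the ATPase with the highest mean in each family. Chd5, Yy1 and further probe sets were given in more detail after their values were seen. A probe set naming several genes, among them Ino80, was not used. The alternatives are in the closing section.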

Additional observations from a re-analysis of the deposited data

Results flagged for a closer look

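A sample far from the other 3 of its group was found in 5 of 92 groups of 4 arrays (5.43%), and chance marks about 1 in 20. Baz1a read 10.97 on mutant array 1, against 9.63 to 9.75 on the other mutant arrays, and control array 1 was also the highest control. Chd3 read 6.62 on mutant array 1, against 5.55 to 5.62 on the other 3. Smarcad1 read 5.63 on mutant array 2, against 4.85 to 4.90. On control array 3, Chd6 read 2.75, against 2.92 to 2.96 on the other controls, and Ino80dos read 3.35, against 3.002 to 3.04. Chd6 and Ino80dos were dim in both groups.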

How the results depend on the processing

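Of 1214 member values over 27 alternatives, 135 changed sign, in 33 of 46 members, and 34 passed the threshold. The 7 members that passed with the replicate block kept their sign in all 27. Of those past the threshold only Smarce1 reversed, at 0.99 with the most variable probe set, which is another probe set of the gene. The member counts of 0 risen and 0 fallen became 5 and 2 with the replicate block. With pair 1, 2, 3 or 4 left out of the blocked fit they were 2 and 0, 5 and 2, 0 and 0, and 1 and 2. Over all genes the blocked fit gave 1201 risen and 899 fallen. With those pairs left out in turn it gave 627 and 521, 1402 and 862, 79 and 115, and 358 and 308. Leaving out 1 array each gave 0 to 2 risen and 0 to 1 fallen: without mutant array 2, Smarca1 and Arid5b passed as risen and Smarcb1 as fallen, and the other 7 fits gave 0. Over all genes, the fit without mutant array 2 gave 755 and 376, and the other 7 gave 70 to 255 risen and 129 to 266 fallen. Array weights gave 3 and 2, trended and robust variances 0 and 2, quantile normalization 0 and 1, a minimum mean of 4 1 and 1 and of 5 0 and 1. Over all genes those fits gave 980 and 675, 508 and 348, 422 and 618, 416 and 364, and 313 and 312. The mean of all probe sets gave 1 risen (Smarcc1) and the most variable probe set 1 (Smarce1), beside 292 and 309 of all genes. Subtracting array medians, the fit over probe sets, the Gapdh covariate, the Sertoli score, leaving out control arrays 1 and 3, and leaving pairs 1 and 3 out of the blocked fit gave 0. In that order, they gave 309 risen and 303 fallen of all genes, 189 and 239, and 120 and 140. The last 3 gave 12 and 20, 18 and 50, and 26 and 35.

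For member probe sets the counts of 1 risen and 1 fallen became 10 and 5 with the block, and 0 and 0 without control arrays 1 and 3 or with the Sertoli score. Leaving out 1 array each gave 0 to 2 in both directions: 2 and 2 without mutant array 2, 2 and 0 without mutant array 4 and 0 and 0 otherwise. Counts over all probe sets in these fits are not given here. At gene level the fit without mutant array 2 gave 755 and 376 of all genes, and without mutant array 4 255 and 218. Genes that differed between probe sets went to 2 with the block, beside 5.89% of 2870 genes. With no minimum mean they went to 3 (Baz2b, Smarce1 and Hells), and the share over all genes in that fit is not given here. Partner subunits were 7 risen and 7 fallen with the block and 0 and 0 with the Sertoli score. Without control arrays 1 and 3 they were 0 and 1. Leaving out 1 array each gave 1 to 2 risen and 0 to 2 fallen, with 0 fallen without control array 1, 3 or 4. Other Snf2 genes fallen went to 1 with the block. The number of arrays limits all of these values, and GCRMA compresses the differences of dim genes. The causes were not tested.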
